A study of Drosophila melanogaster with 2 samples.

Results

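Peaks were described at 10 genes of the Notch and BMP pathways, taken by symbol out of 13945 protein-coding genes of the Ensembl annotation of the fly genome. They are Dl, N, neur and Su(H) of the Notch pathway and tkv, put, Mad, Med, shn and Dad of the BMP pathway, with Dl listed as Delta in the annotation. All 10 were found. The question was where the zinc finger protein CG17801 sat on these genes in the ovary of Drosophila melanogaster. Adult females, of unknown age per the labels, carried a stable site-specific insertion that expresses CG17801 with GFP at its C-terminus, and ovary chromatin was immunoprecipitated with an anti-GFP antibody and sequenced (ChIP-seq). The 2 samples are biological replicates of 1 group, numbered 1 and 3. Neither an untagged ovary nor another GFP-tagged protein is among the samples. Peaks of the antibody itself, or common to any GFP-tagged protein, thus cannot be told apart from those of CG17801. Replicates 1 and 3 have a peak list each, a pooled list comes from both, and a list of 6723 peaks passed the irreproducible discovery rate procedure (the IDR list).

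Notch signalling passes between touching cells. The ligand Delta on one cell binds the receptor Notch on its neighbour, the receptor is cut, and its inner part enters the nucleus and works with Su(H) on target genes. BMP ligands such as Dpp bring type I and type II receptors together, the receptors phosphorylate Mad, and Mad enters the nucleus with Med. In the fly ovary, BMP signals from the niche keep germline stem cells undifferentiated, and Notch signals from the germline make follicle cells change their cell cycle.

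The stretches below are the genome sequence around some of the summits that the results turn on, where a summit is the base of highest signal in a peak. They are shown so that the promoter matches and the A+T content of the intronic sites can be seen letter by letter. In the intronic windows shown, A+T content ran from 51.5% in Dl to 76.2% in N and Dad. Each runs 50 bp to both sides of an IDR summit, or less where an annotated UTR begins, and reads 5′ to 3′ on the strand of its gene in dm6. Capitals mark matches, on either strand, to the motifs described further on.
neur, 199 bp upstream of the internal start site, chr3R:9033880-9033980, minus strand: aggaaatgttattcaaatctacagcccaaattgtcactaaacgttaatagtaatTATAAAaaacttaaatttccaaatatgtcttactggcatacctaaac
neur, intron, chr3R:9031967-9032067, minus strand: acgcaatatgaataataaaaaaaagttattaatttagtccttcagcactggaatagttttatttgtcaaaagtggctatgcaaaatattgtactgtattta
N, start site, chrX:3134817-3134869, plus strand: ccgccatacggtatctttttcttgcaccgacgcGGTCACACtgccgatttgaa
N, intron 5, chrX:3162475-3162575, plus strand: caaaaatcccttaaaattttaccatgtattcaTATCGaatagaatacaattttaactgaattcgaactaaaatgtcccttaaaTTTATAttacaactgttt
Dl, intron 1, chr3R:19322041-19322141, minus strand: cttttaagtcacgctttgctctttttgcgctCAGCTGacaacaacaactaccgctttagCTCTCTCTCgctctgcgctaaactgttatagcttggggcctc
tkv, start site of tkv-RD, chr2L:5237363-5237426, minus strand: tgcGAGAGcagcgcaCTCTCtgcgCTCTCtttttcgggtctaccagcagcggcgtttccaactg
Mad, intron 1, chr2L:3153402-3153502, minus strand: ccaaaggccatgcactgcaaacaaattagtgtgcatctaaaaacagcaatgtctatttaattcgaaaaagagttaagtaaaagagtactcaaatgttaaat
Dad, intron 5, chr3R:17065149-17065249, plus strand: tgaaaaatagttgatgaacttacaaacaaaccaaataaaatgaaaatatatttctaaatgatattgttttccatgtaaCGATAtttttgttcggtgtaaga

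All 10 genes had an IDR summit inside the gene or within 1 kb of it. Over all protein-coding genes the share was 43.9%. By gene span, the share was 57.7% among genes of 20 kb and over, where N, Dl, tkv and shn belong. It was 61.0% among genes of 5 to 20 kb, where neur, put, Mad and Dad belong, and 38.5% among genes of under 5 kb, where Su(H) and Med belong. Both Med summits and the only put summit lay outside the gene and nearer to the start site of a neighbour, so 8 of the 10 remain when the gene span alone is searched.

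At the transcription start site (TSS), 8 of the 10 genes had an IDR summit within 250 bp, all but Dl and Mad. The share over all protein-coding genes was 30.4%. The put and Med summits also lay within 250 bp of the TSS of a divergent neighbour. That leaves 6 genes with a summit at their own TSS alone, and the share of all genes was not counted this way. Of the 5 genes with 1 annotated TSS, N, Su(H), put and Med were bound there and Dl was not, beside 24.8% of all genes with 1 TSS. Of the 5 with more than 1, neur, tkv, shn and Dad were bound at a TSS and Mad was not, beside 46.0% of all genes with 2 or more. The 10 genes have 20 distinct TSSs, of which 9 carried an IDR summit and 16 a summit of the pooled list. With 1 group of 2 samples no test of these counts against the other genes was run.

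The 34 IDR summits of the 10 genes were spread unevenly, with 11 on the 4 Notch pathway genes and 23 on the 6 BMP pathway genes. The gene shn alone held 13, or 38.2%. Of the 34, 9 stood nearer to a TSS of another protein-coding gene than to any TSS of the gene they are counted for. Per kb of gene and flanks, the 10 genes had 0.133 IDR summits and 0.108 without shn, against 0.0823 over all protein-coding genes and 0.0385 over those of 20 kb and over. In single genes the density ran from 0.018 per kb in tkv to 0.316 per kb in Med, with 0.216 in shn and 0.272 in Dad. Both Med summits lay outside the gene. Of genes in the same span class, 538 of 1013 were denser than tkv and 1572 of 10461 denser than Med. Likewise 34 of 1013 were denser than shn and 215 of 2471 denser than Dad. Inside introns and away from any protein-coding TSS lay 22 of the 34 (64.7%), against 31.7% of all IDR summits. Within 250 bp of a protein-coding TSS, of the gene itself or of a neighbour, lay 12 (35.3%), against 55.0% of all IDR summits. The intronic share rests in large part on shn, which gave 11 of the 22. These shares are not like for like, because the 34 were taken only in the 10 genes or within 1 kb. None of them lay outside genes and away from a TSS, against 9.8% of all IDR summits. The comparison was also not matched for gene length, and 4 of the 10 genes span 20 kb and over. Their signals lay around the middle of the list, with a median of 178 for the summits of the 10 genes, against 180 over the IDR list, and 17 of 34 lay above that of the list. Signal values are those the authors deposited, their scale is not stated, and ranks count from the strongest peak of a list.

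**Figure D1:**
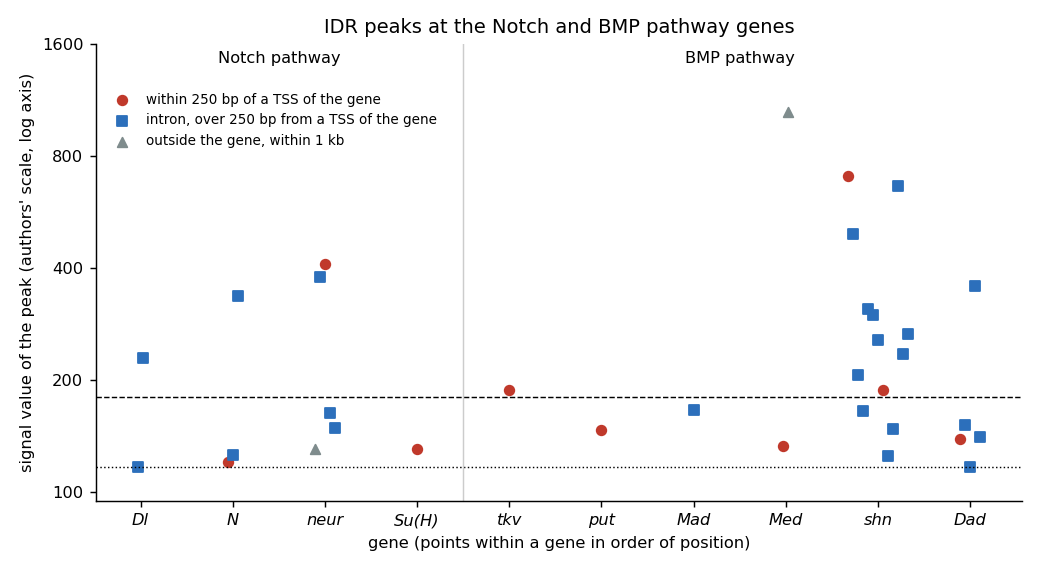
Signal value (authors' scale, log axis) of each of the 34 IDR summits, by gene, with points of a gene in order of position along the chromosome; colour and shape give the place of the summit. The dashed line is the median of all IDR peaks (180) and the dotted line the weakest (117); shn holds 13 points, and the highest point is the summit 796 bp past the end of Med, at 1051.

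Dl encodes the ligand Delta. It spans chr3R:19302731-19326217 on the minus strand and has 1 TSS. Its stronger IDR summit lay in intron 1, 4126 bp downstream of the TSS, with signal 229 and rank 2203 of 6723. The replicates ranked it 1873 (replicate 1) and 2571 (replicate 3) of 30000 peaks each. The intron sequence printed above holds CAGCTG and a run of GAGAG matches. The second, in intron 5, had signal 117 and rank 6711 and was among the weakest of the list, with rank 6522 in replicate 1 and 8826 in replicate 3. At the TSS itself the pooled list had a summit 24 bp upstream with signal 109 and rank 7428, found in replicate 1 with signal 53.5 and in replicate 3 with signal 59.5, which did not enter the IDR list.

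N encodes the receptor Notch and spans chrX:3134870-3172221 on the plus strand. Of its 3 IDR summits, 1 lay 3 bp upstream of its only TSS with signal 121 and rank 6396 of 6723, near the weak end of the list. The replicates placed that summit far apart in rank, at 3117 in replicate 1 (signal 87.5) and 13156 in replicate 3 (signal 38.2). The strongest summit of N lay in intron 5, an intron of 4245 bp and 27.66 kb from the TSS. It had signal 336 and rank 1121, with rank 1046 in replicate 1 and 1372 in replicate 3. The remaining summit, in intron 1, had signal 126 and rank 6023, with signal 49.6 in replicate 1 and 76.0 in replicate 3. In N the signal was thus higher inside the gene than at its start.

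The gene neur encodes Neuralized, the ubiquitin ligase that drives uptake of Delta in the signalling cell. It spans chr3R:9020348-9039471 on the minus strand and has 2 TSSs, 5.74 kb apart. It held 5 IDR summits, and 63 of 2471 genes of 5 to 20 kb (2.55%) held 5 or more. The strongest lay 199 bp upstream of the internal TSS, from which neur-RA and neur-RB start, with signal 410 and rank 770. It had signal 182 and rank 737 in replicate 1, and signal 240 and rank 779 in replicate 3. The replicate 3 summit was 77 bp farther upstream, beyond 250 bp of the TSS. A summit 1714 bp downstream of the same TSS had signal 380 and rank 891, with rank 891 in replicate 1 and 1006 in replicate 3. Another summit of this cluster, 400 bp upstream, had signal 163 and rank 4037 and a match within 100 bp in replicate 1 but not in replicate 3.

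The first TSS of neur, that of neur-RC, neur-RD and neur-RE, had no IDR summit. The pooled list had one 223 bp upstream of it with signal 112 and rank 7066. The other 2 IDR summits of neur lay at start sites of other genes. One, of signal 149, was 94 bp from the TSS of hyx, a gene on the opposite strand that starts inside neur, with rank 3793 in replicate 1 and 5996 in replicate 3. The other, of signal 131, was 91 bp from the TSS of tgo, downstream of neur, with rank 7186 in replicate 1 and 5547 in replicate 3. The summits of highest signal in neur thus lay around its internal TSS.

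Su(H) encodes the DNA-binding protein through which Notch acts. It spans chr2L:15039488-15043334 on the plus strand and had 1 IDR summit, 12 bp downstream of its TSS, with signal 131 and rank 5685. The replicates ranked it 10581 in replicate 1 (signal 38.9) and 3701 in replicate 3 (signal 99.7).

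**Figure D2:**
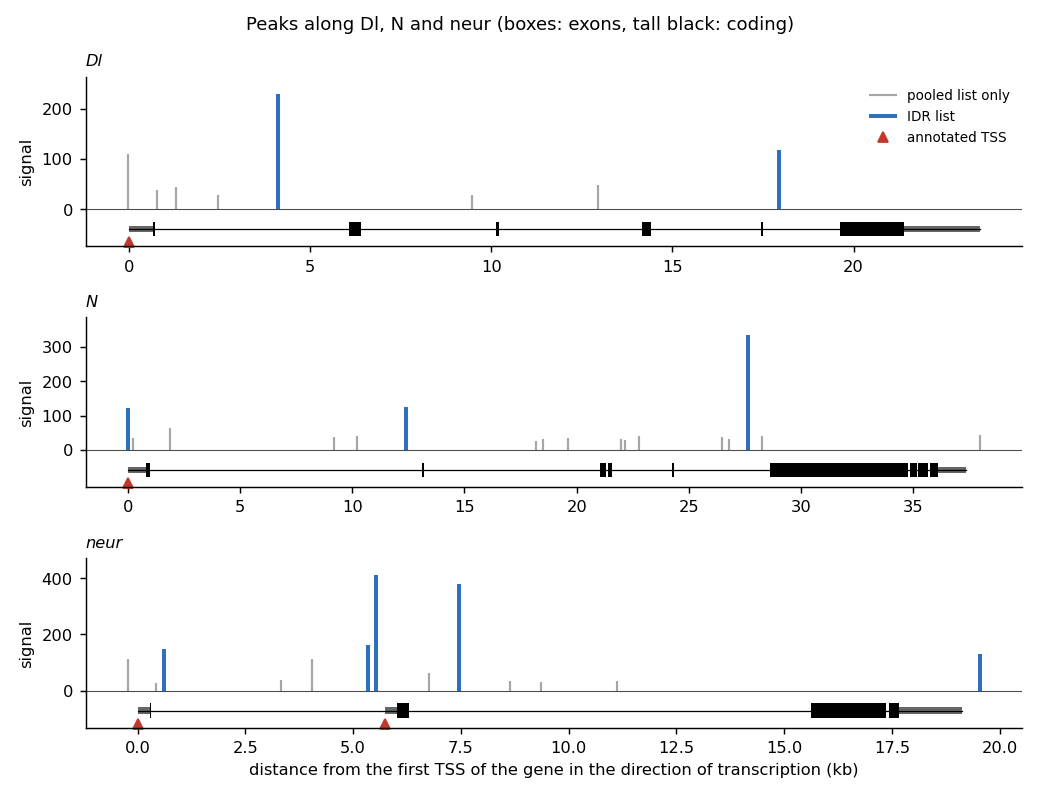
Signal (authors' scale, linear axis) of summits of the pooled list along Dl, N and neur by distance from the first TSS in kb, blue where the summit is in the IDR list and grey where it is not; triangles are annotated TSSs. The highest bar stands at 4.13 kb in Dl, at 27.66 kb in N and at 5.54 kb in neur, just before the second triangle.

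Among the BMP receptors, tkv encodes the type I receptor Thickveins. It spans chr2L:5219000-5271384 on the minus strand and has 4 TSSs over its 52.4 kb. It had 1 IDR summit, 14 bp upstream of the most downstream TSS, that of tkv-RD, 34.02 kb from the first. This summit had signal 188 and rank 3092, with signal 107 and rank 2095 in replicate 1 and signal 70.3 and rank 6371 in replicate 3. The first TSS, of tkv-RA, had a pooled summit of signal 41.2 and rank 20025, and that of tkv-RB one of signal 41.8. No list had a summit within 250 bp of the TSS of tkv-RC. The pooled list held 28 summits over tkv, the strongest outside the IDR list with signal 117 and rank 6727, directly below the end of that list.

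The type II receptor Punt is encoded by put, at chr3R:14619030-14625703 on the minus strand. Its only IDR summit lay 52 bp upstream of the TSS with signal 147 and rank 4797, and the replicates ranked it 5350 (replicate 1) and 4401 (replicate 3). This summit lay on a TSS of the divergent histone gene His4r at 0 bp, so which of the 2 promoters it belongs to cannot be told apart.

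Mad encodes the receptor-activated transcription factor of the pathway and spans chr2L:3146056-3159643 on the minus strand. Its 1 IDR summit lay in intron 1, 699 bp upstream of the second TSS (Mad-RB) and 6.19 kb from the first. It had signal 167 and rank 3855, and the replicates placed it alike, at rank 3966 in replicate 1 and 3764 in replicate 3. None of the 4 lists had a summit within 250 bp of the Mad-RB TSS. At the first TSS (Mad-RA) the pooled list had one of signal 96.1 and rank 8618.

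Med encodes the co-Smad Medea, the partner of Mad, at chr3R:31611046-31615375 on the plus strand. The summit 79 bp upstream of its TSS had signal 133 and rank 5569 and lay 11 bp from the TSS of the divergent gene CycG. In replicate 1 it had signal 110 and rank 1974, and in replicate 3 signal 29.4 and rank 17010. Replicate 3 had a stronger summit 239 bp downstream of the Med TSS, with signal 46.6 and rank 10645. The strongest summit in reach of any of the 10 genes lay 796 bp past the end of Med, with signal 1051 and rank 98 (rank 113 in replicate 1 and 85 in replicate 3). It stood 11 bp from a TSS of Mnat9 and 132 bp from that of CG1792, genes that start there in opposite directions.

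The zinc finger protein Schnurri, encoded by shn, joins Mad and Med in repressing target genes. Its gene spans chr2R:11159086-11217394 on the plus strand, with 6 transcripts from 5 TSSs. It held 13 IDR summits, and 10 of the 13945 genes held more. Among genes of 20 kb and over, 14 of 1013 (1.38%) held 13 or more. The strongest lay 160 bp upstream of the TSS of shn-RD and shn-RF, 14.72 kb from the first TSS, with signal 706 and rank 265. It had signal 361 and rank 179 in replicate 1, and signal 347 and rank 380 in replicate 3. A second TSS summit lay 7 bp downstream of the start of shn-RB, with signal 188 and rank 3110. The replicates ranked it 2823 (replicate 1) and 3885 (replicate 3). The remaining 3 TSSs of shn carried no IDR summit.

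The other 11 summits of shn lay in introns. The strongest of these, 1100 bp upstream of the TSS of shn-RC, had signal 663 and rank 297, with rank 343 in replicate 1 and 265 in replicate 3. The next, 21.8 kb from the first TSS in the intron after the shn-RD start, had signal 494 and rank 557, with rank 561 in replicate 1 and 557 in replicate 3. The remaining 9 ranged from signal 125 to 311. A pair of them, 1168 bp and 952 bp upstream of the shn-RB start, had signals of 300 and 256. On the other side of that start, 1879 bp downstream, lay the weakest, of signal 125. After the shn-RC start, summits 766 bp and 2495 bp downstream had signals of 236 and 267. Those 1281 bp and 2619 bp downstream of the shn-RA start had signals of 207 and 165, and the weaker of these was ranked apart by the replicates, at 8129 in replicate 1 and 2950 in replicate 3. All but 1 of the 13 were matched within 100 bp in both replicates. The exception, of signal 300 and rank 1347 and 1168 bp upstream of the shn-RB start, had no replicate 3 summit at that distance. Replicate 3 had one 1055 bp upstream of that start, with signal 189 and rank 1210. The summits ran from 14.56 to 48.04 kb, and the first TSS of the gene, that of shn-RE, had no summit within 250 bp in any of the 4 lists. At the TSS of shn-RA only replicate 1 had one, of signal 15.9 and rank 24832, and at that of shn-RC the pooled list had one of signal 51.9. The bound starts of shn were therefore 2 internal ones.

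By ranks in both replicates, the genes whose strongest TSS summit stood nearest to that of shn were CG15771, CG1774 and Best1. Their IDR ranks were 234, 274 and 235, over the 2 replicates compared.

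Dad encodes the inhibitory Smad of the fly, itself induced by BMP signals. It spans chr3R:17054007-17070408 on the plus strand and held 5 IDR summits, as neur did. The summit 22 bp downstream of its first TSS had signal 139 and rank 5206, with rank 5402 in replicate 1 and 5932 in replicate 3. The strongest lay in intron 5, 11.19 kb from that TSS, with signal 358 and rank 999. It had signal 184 and rank 726 in replicate 1, and signal 185 and rank 1262 in replicate 3. A second summit in the same intron had signal 141, with rank 8341 in replicate 1 and 6194 in replicate 3. Intron 2 held a summit of signal 152, with rank 5344 in replicate 1 and 4902 in replicate 3, and intron 3 one of signal 117. At the second TSS, of Dad-RB, the pooled list had a summit of signal 41.4 and rank 19932. In Dad as in N the summit of highest signal stood inside the gene.

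**Figure D3:**
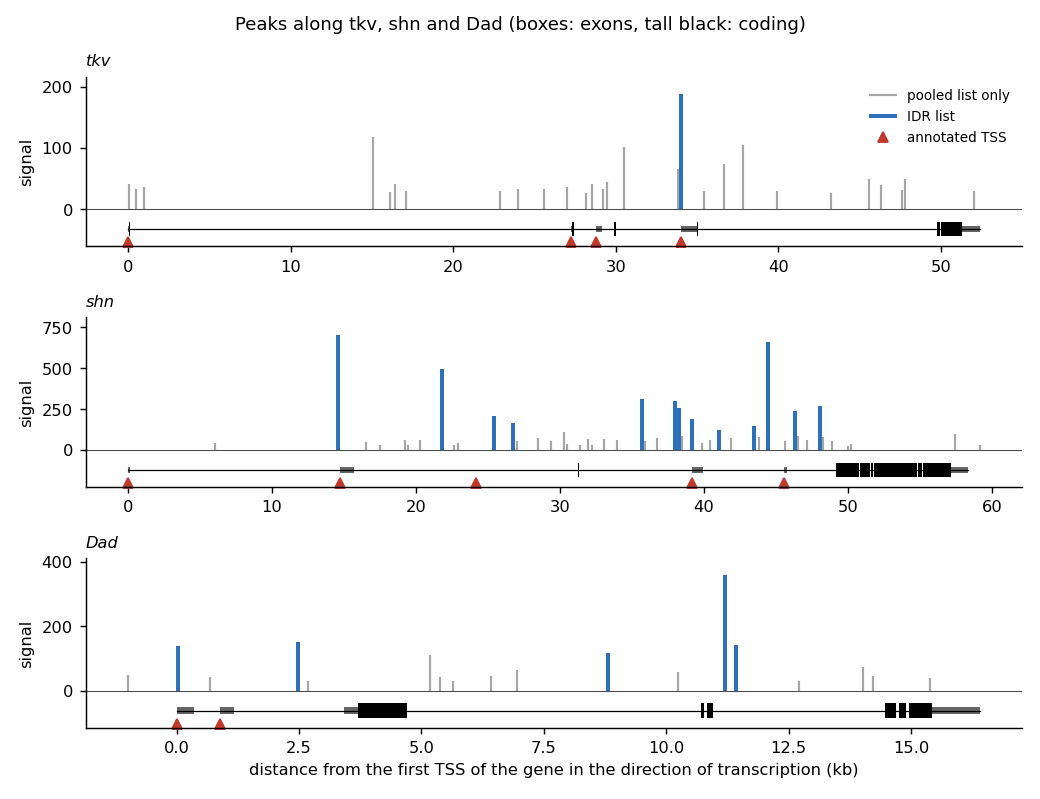
Signal (authors' scale, linear axis) of summits of the pooled list along tkv, shn and Dad by distance from the first TSS in kb, blue where the summit is in the IDR list and grey where it is not; triangles are annotated TSSs. The single blue bar of tkv is at its last triangle, the blue bars of shn run from 14.56 to 48.04 kb and miss the first triangle, and the highest bar of Dad is at 11.19 kb.

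Of the 34 summits, 34 had a summit within 100 bp in replicate 1 and 32 in replicate 3. The share with one in both was 93.3% over the whole IDR list. For each summit found in both, the larger of its 2 replicate ranks was divided by the smaller, and the median of this ratio was 1.35 over the 10 genes and 1.51 over all IDR summits. The 9 summits at a TSS of their gene had a median ratio of 2.12, and 5 of them exceeded 2. These were the TSS summits of Med (8.62), N (4.22), tkv (3.04), Su(H) (2.86) and the stronger one of shn (2.12). The 23 others had a median of 1.33, and the 3 that exceeded 2 were all in shn. Over all IDR summits the medians were 1.51 at TSSs, where 26.9% exceeded 2, and 1.52 elsewhere, where 27.0% did. Replicate 1 ranked the TSS summits of Med, N, tkv and shn higher, and replicate 3 that of Su(H). With the 6723 strongest peaks of replicate 3 alone, N, neur and Med lost their TSS summit and 5 of the 10 genes kept one. The N and Med summits ranked below that cut. The neur summit ranked 779 but lay 276 bp from the TSS, just beyond the 250 bp window. With the 6723 strongest peaks of replicate 1 alone, Su(H) lost its own and Mad gained one, for 8 of 10.

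**Figure D4:**
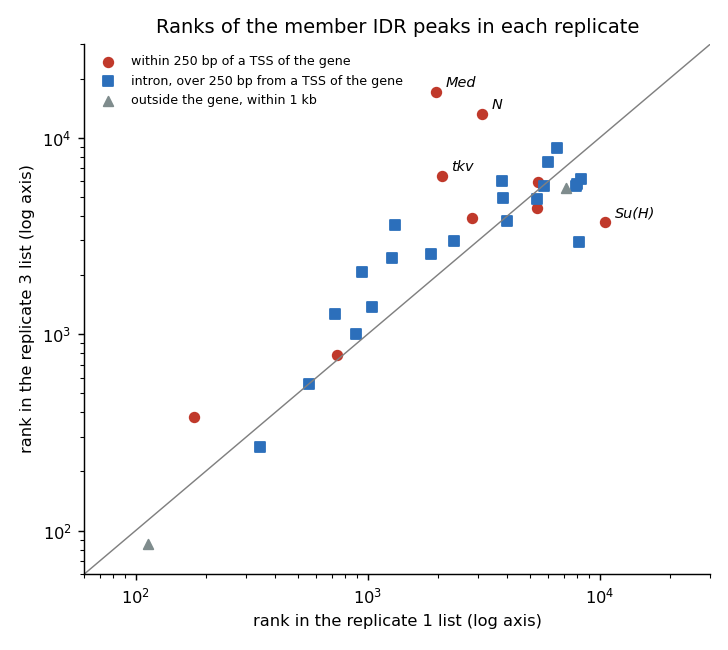
Rank of each IDR summit of the 10 genes in the replicate 1 list (x) and the replicate 3 list (y), both log axes, for the 32 found in both; the line marks equal ranks. The red points farthest from the line are the TSS summits of Med, N, tkv and Su(H), and all but 3 of the 23 points in blue and grey lie within a 2-fold difference of rank.

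Below the end of the IDR list, the pooled list had 8 further summits of these genes up to rank 7500, in 7 genes and with signals of 108 to 117. Of these, 2 stood at a TSS, those of Dl and of the first start of neur, the summit at neur being nearer to a TSS of hyx, at 72 bp. The weakest IDR summits were those of signal 117 in Dl (rank 6711) and Dad (rank 6713). Dl thus missed the count of TSS-bound genes by a summit just outside the list, and with the whole pooled list all 10 genes had a TSS summit, beside 55.4% of all genes.

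Known motifs were searched on both strands within 50 bp of each summit, and a match describes letters only. The DRE, the site TATCGATA of the promoter factor DREF, lay at the Su(H) TSS summit and at none of the other 33 (2.94% of 34), beside 3.05% of all IDR windows and 0.573% of flanks centred 300 bp away. The shorter BEAF-32 core CGATA, which the DRE contains, was in 7 windows (20.6%), beside 18.9% of all and 12.3% of flanks. The core of promoter Motif 1, GGTCACAC, was at the N TSS alone, as printed above, beside 2.14% of all IDR windows. GAGAG, the site of GAGA factor, was in 7 windows (20.6%), in Dl, neur, tkv, shn and Dad. It was in 13.8% of all IDR windows and 13.5% of flanks, so it was hardly more common at summits than beside them. CAGCTG was in the Dl intron 1 window alone, beside 5.92% of all and 4.77% of flanks. TATAAA was in 5 (14.7%), beside 17.9% of all and 12.4% of flanks. CACGTG was in none, beside 1.2% of all and 1.52% of flanks.

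The sites of the pathways' own factors were uncommon in IDR windows as a whole. GTGGGAA, a form of the Su(H) site, was in the window of the strongest shn summit alone, beside 0.982% of all IDR windows and 1.12% of flanks. The form GTGAGAA was in none, beside 1.18% of all IDR windows, and the Mad site GCCGNCGC in none, beside 1.2%. The silencer element to which Mad, Med and Schnurri bind was also in none, beside 0.0744%. Shares this low leave a count of 0 in 34 windows without a difference to read. Of the 10 words of 8 bases most enriched at IDR summits over their flanks, at least 1 was in 3 windows (8.82%), those of N, Su(H) and the neur summit at hyx, beside 8.69% of all IDR windows and 2.31% of flanks. The median A+T content of the windows was 61.9%, beside 62.4% over all IDR windows and 58.4% in flanks. It differed widely between summits, with 76.2% at the strongest summits of N and Dad, 72.3% and 74.3% at the 2 strongest of neur and 58.4% at the 2 strongest of shn. At the lower end, the tkv-RD window had 43.6% and that of the shn-RB start 40.6%.

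The other genes of both pathways were taken from a list of 54, all of which were matched to the annotation. At a TSS, 30 of them (55.6%) had an IDR summit, another 6 had one elsewhere in the gene or within 1 kb of it, and 18 had none in reach. Of 31 further Notch pathway genes 18 were bound at a TSS (58.1%), and of 23 further BMP pathway genes 12 (52.2%), beside 30.4% of all protein-coding genes. The list was not matched for gene length or TSS number. The highest TSS signals of the Notch list were at numb (728), gro (382), AP-2alpha (259) and Nedd4 (252). Numb antagonises Notch in dividing cells, and gro encodes the corepressor Groucho. Those of the BMP list were at spict (316), wit (226), fu (187) and sog (163), of which wit encodes another type II receptor and sog an extracellular antagonist.

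By role, the counts at a TSS are read beside the 30.4% of all protein-coding genes, and most roles hold few genes. All 3 sugar-adding modifiers of Notch (fng, O-fut1 and rumi), 4 of 5 protease genes and 6 of 7 Notch regulators had a TSS summit, as did 3 of 6 transcription cofactors of Notch. So had both further BMP receptors (sax and wit), all 3 intracellular BMP regulators, all 3 nuclear ones and 4 of 9 extracellular ones. None of the 4 further ligand genes did, Ser of Notch and dpp, gbb and scw of BMP. However, dpp (signal 144) and gbb (signal 123) each had an IDR summit in reach but none at a TSS. Of 9 Notch target genes 2 had a TSS summit, near the share of all genes, E(spl)mbeta-HLH with signal 126 and ct with signal 119. The 3 BMP targets bam, salm and bi had no IDR summit in reach, and bam is the differentiation gene that BMP signals silence in germline stem cells. Whether these counts differ between roles was not tested.

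**Figure D5:**
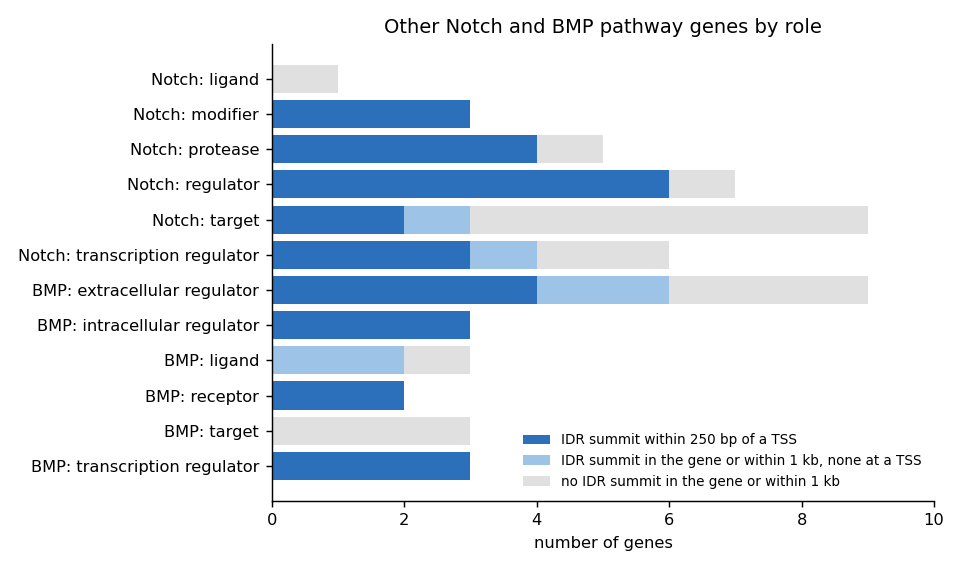
Number of further Notch and BMP pathway genes in each role (bars), split by whether an IDR summit lay within 250 bp of a TSS, only elsewhere in the gene or within 1 kb, or nowhere in reach. Receptors, modifiers and intracellular regulators are filled with dark blue in all or most cases. The 4 ligands and the 3 BMP targets have no dark blue. Of the 3 BMP ligands, 2 had a summit elsewhere in reach, while the BMP targets had none in reach.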

How the data were processed

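Peak lists on dm6 were analysed from anti-GFP ChIP-seq of 2 ovary samples. Per the file headers, here the text descriptions deposited with the samples, peaks were listed per replicate against a control file, again for both replicates pooled, and the IDR list was derived from these 3 lists. The sources used here name neither aligner nor peak caller. The signal value of each peak was deposited by the authors on an unstated scale and served only to rank and describe peaks of 1 list at a time. The −log10 q-value, as deposited, was not used. Peak lists hold no read totals: the depth is unknown, and no counting error can be given.

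A gene had a summit in reach when one lay in its span or within 1 kb, and at a TSS when within 250 bp of an annotated start. Summits within 100 bp matched between lists. Motifs were searched 50 bp to each side of a summit. Counts were made with pandas 2.3.3 and numpy 2.4.6 in Python 3.11.15, figures with matplotlib 3.10.9, and gene counting was tested on simulated data. Members, lists and motifs were chosen with earlier results of these data known. The genes named are the 10 members, neighbours whose TSS lay within 250 bp of a member summit, 3 genes of nearest rank to shn, and the 4 of highest TSS signal in each other list; genes named by role beyond these were chosen after their values were seen. No test was possible with 1 group of 2 samples, and the main counts are given beside the share of all genes or all IDR peaks.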

Additional observations from a re-analysis of the deposited data

How the results depend on the processing

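The count of genes with an IDR summit in reach, 10, was 7 with the 50% strongest IDR peaks and 8 with no flank. It was also 8, with 25 summits, when summits nearer to a TSS of another protein-coding gene were left out. The share of all genes in reach under these settings is not given here, so these counts are not read against other genes. The 34 summits became 17 with those 50%, 150 with the whole pooled list, 21 without shn and 31 when summits under 300 bp apart counted as 1, the last pair chosen after seeing the data; leaving out a replicate gave 33 to 36. The 8 genes bound at a TSS became 3 with those 50% (neur, tkv and shn), beside 17.1% of all genes, and 5 to 8 with a replicate left out, beside 29.8% of all genes without replicate 1 and 29.4% without replicate 3. Of 34 summits, 32 were matched in both replicates within 100 bp, 20 within 50 bp and 34 within 250 bp. The 30 other pathway genes bound at a TSS became 14 with those 50%. Motif 1 core was at 1 summit, and at 2 with 100 bp to each side. No paired analysis was possible because the 2 replicates form 1 group. The cause of these changes was not tested, beyond fewer or more peaks being searched. Depth is unknown from these files, so what it limits cannot be stated.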

Other observations

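Among the other pathway genes, chosen here after their values were seen, 3 genes for nuclear partners of the pathways resembled shn in holding many IDR summits along long genes. Smr, the corepressor gene known as SMRTER, held 14 summits over 58.4 kb, against 13 over 58.3 kb in shn. The Notch coactivator gene mam held 9 over 69.2 kb, and nej, the gene of the acetyltransferase CBP, held 7 over 21.6 kb. The strongest summits had signals of 540 in Smr, 513 in mam and 789 in nej, while their TSS summits had signals of 190, 252 and 142. Nipped-A, of 73.1 kb, and the BMP target bi, of 72.8 kb, had none. Of the other nuclear partners listed, Snoo held 6 over 93.0 kb, CtBP 3, gro and brk 1 each, and H none. All genes of 20 kb and over had a median of 1 IDR summit and at most 20, and 57.7% had any.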
